A study of Mus musculus with 12 samples.

Results

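The 9 genes described here encode enzymes that clear superoxide and peroxides: the superoxide dismutases Sod1, Sod2 and Sod3, catalase (Cat), the glutathione peroxidases Gpx1, Gpx2, Gpx3 and Gpx4, and glutaredoxin (Glrx), which is a thiol reductase and neither a dismutase nor a peroxidase. They were chosen by name, as 9 of the 22180 genes with a value in the table. Each had 1 probe set on the Affymetrix array, so no choice among probe sets was needed. The samples were cultures of mouse keratinocytes, which build the epidermis, and all carried floxed Atg7 (Atg7 f/f). KO cultures also carried K14::Cre, a recombinase driven by the promoter of keratin 14, a keratin of basal keratinocytes, and so were autophagy deficient, and wt cultures lacked it. The 4 groups were KO given paraquat at 20 µM, KO sham treated, wt given paraquat at 20 µM and wt sham treated, each with RNA taken after 48 h from 3 cultures and 1 array per culture. The labels call the 3 cultures biological triplicates without naming animals or ages, so each p-value measures the spread between these cultures, which may be partly technical.

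Superoxide is made by leakage of electrons in mitochondria and by redox-cycling compounds such as the herbicide paraquat. Superoxide dismutases turn it into hydrogen peroxide and oxygen: SOD1, a copper and zinc enzyme, in the cytosol, SOD2, a manganese enzyme, in the mitochondrial matrix, and SOD3 outside the cell. Catalase, in peroxisomes, splits hydrogen peroxide, and the selenium-containing glutathione peroxidases reduce peroxides with glutathione: GPX1 in cytosol and mitochondria, GPX2 mainly in gut epithelium, GPX3 as a secreted form and GPX4 on lipid peroxides in membranes. Glutaredoxin uses glutathione to free protein thiols that have become bound to it.

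The targeted gene bore out the genotype labels. Atg7 signals were 96 to 148 in the KO paraquat arrays and 103 to 111 in the KO sham arrays, against 442 to 457 in wt paraquat and 286 to 356 in wt sham arrays, and the probe set may cover sequence outside the deleted part. The median signal per array was 42 to 45, the number of arrays limits the precision, and background was not measured. In a principal component analysis KO paraquat 3 scored -19.7 on the third component, where the remaining KO paraquat arrays scored -5.52 and -6.34. On the second component wt sham 2 scored -31.4, where the remaining wt sham arrays scored -11.4 and -20.4. Calls that change without these 2 arrays are given with that value beside them.

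Of 8 measured keratinocyte markers, all had a mean signal above the highest array median in every group. Under paraquat 27.1% of all genes were called changed in KO and 29.2% in wt, by the test given below. Of the 8 markers 1 rose and 5 fell in KO, and 1 rose and 5 fell in wt. Their summed signal was 18016 to 19594 in KO paraquat, 20551 to 22129 in KO sham, 18315 to 18386 in wt paraquat and 20585 to 22543 in wt sham arrays. Krt14 weighed most on these sums, with means of 9451, 10980, 8960 and 10880 in the same order. Picked after their values were seen, Ivl averaged 1325, 263.7, 1823 and 276.3, and Krt1 114, 351.7, 173 and 447.7. The sums thus do not show how single markers moved.

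In wt keratinocytes 4 of the 9 genes rose and 2 fell under paraquat, and 3 did not pass the test. Glrx, Gpx3, Gpx1 and Cat rose, and Sod1 and Gpx4 fell. A gene was called changed at an adjusted p under 0.05 (limma's moderated test, Benjamini-Hochberg over all 22180 genes). By the same rule 29.2% of the whole table was called in wt, with 14.9% rising and 14.3% falling. The median log2 difference was 0.19 over the 9 genes and 0.00882 over all genes.

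Glrx had the largest rise of the 9. Its signals were 2725, 3100 and 2695 in wt paraquat arrays, against 625, 885 and 559 in wt sham arrays. Every paraquat array was thus above every sham array, and the rise was 4.19-fold (log2 2.07 with an SE of 0.19, adjusted p = 2.5e-06, 3 arrays in each group). Gpx3, the secreted peroxidase, had signals of 94, 96 and 92 in wt paraquat arrays, against 42, 44 and 34 in wt sham arrays. The groups did not overlap, and Gpx3 rose 2.36-fold (log2 1.24 ± 0.16, adjusted p = 3.93e-05, with ± giving the SE for all log2 differences). Its sham signals, 29 to 44 in both genotypes, lay near or under the array medians, so they were not shown to be above background, and with 16 added to every signal before the log2 the difference was 0.98 (adjusted p = 3.57e-05).

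Gpx1 and Cat, the main cytosolic and peroxisomal peroxide-removing enzymes, rose by less. Gpx1 signals were 3057, 3028 and 3199 in wt paraquat arrays, against 2333, 2136 and 2042 in wt sham arrays, a 1.43-fold rise (log2 0.51 ± 0.08, adjusted p = 2.02e-04). Cat signals were 2797, 2802 and 2815 in wt paraquat arrays, against 2229, 1992 and 1961 in wt sham arrays, a 1.36-fold rise (log2 0.45 ± 0.09, adjusted p = 0.00216). Neither gene's groups overlapped, and the 3 paraquat arrays of Cat had an SD of only 9.29.

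Sod1 and Gpx4 went the other way. Sod1 signals were 357, 324 and 314 in wt paraquat arrays, against 508, 518 and 398 in wt sham arrays, 1.42-fold lower (log2 -0.51 ± 0.14, adjusted p = 0.0135). Gpx4, the lipid peroxide enzyme, had 266, 269 and 255 in wt paraquat arrays, against 303, 359 and 324 in wt sham arrays, 1.25-fold lower (log2 -0.32 ± 0.08, adjusted p = 0.01). The groups of both genes did not overlap. The Sod1 call rested on single arrays: the adjusted p was 0.0551 without wt sham 1, 0.0552 without wt sham 2 and 0.0514 without wt paraquat 3. Without wt sham 2 and KO paraquat 3 together both calls held, with adjusted p = 0.0259 for Sod1 and 0.0416 for Gpx4. Lower signal from a whole culture cannot tell less RNA per cell from fewer cells of a type.

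Sod2, the mitochondrial dismutase, did not pass in wt although its groups did not overlap. Its signals were 984, 926 and 956 in wt paraquat arrays, against 879, 803 and 825 in wt sham arrays (log2 0.19, 95% interval -0.0184 to 0.406, adjusted p = 0.176). Non-overlapping arrays were seen in 7 of the 9 genes, and in 37.6% of all genes. Sod3 signals were 36 to 41 in wt paraquat and 34 to 46 in wt sham arrays, and Gpx2 signals were 21 to 25 and 21 to 32 in the same order. These extracellular and gut-type members lay near or under the array medians in every group, so their levels were not shown to be above background. Their groups overlapped, with 95% intervals of -0.317 to 0.262 for Sod3 and -0.568 to 0.0885 for Gpx2 on the log2 scale. A Gpx2 pseudogene, Gpx2-ps1, has its own probe set, and signal shared between the pair would be uncertain.

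**Figure D1:**
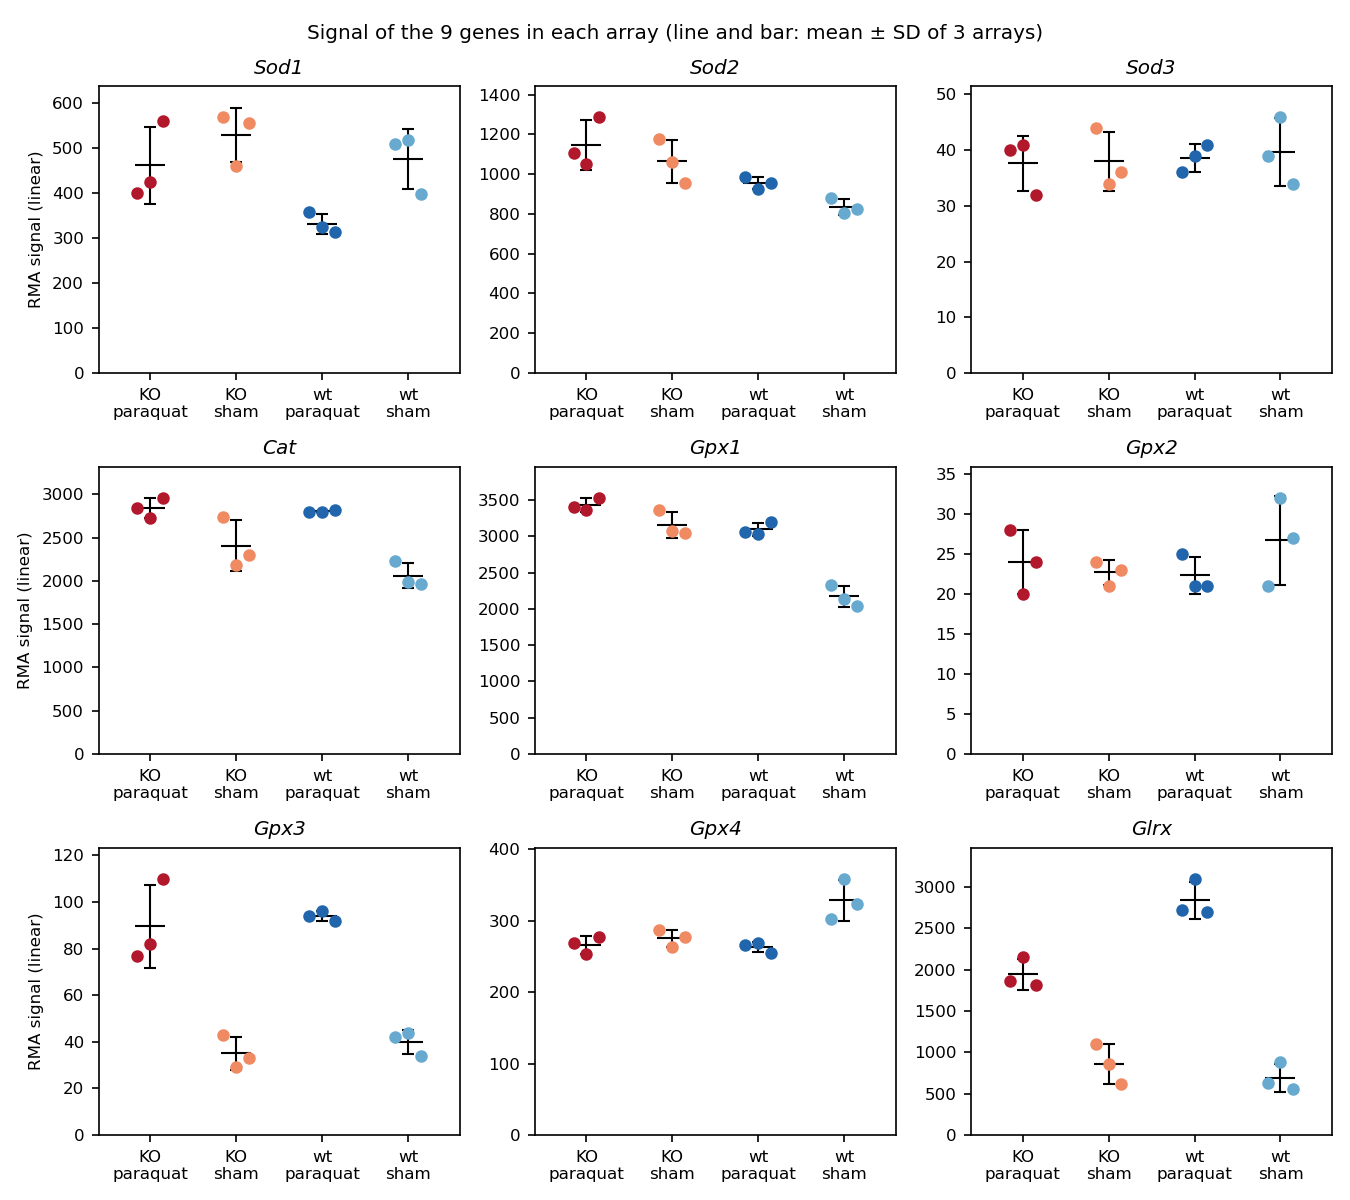
Signal (linear scale, from 0) of each of the 9 genes in the 12 arrays, with points for single arrays and a line and bar for the mean and SD of 3 arrays in KO paraquat, KO sham, wt paraquat and wt sham cultures. Glrx and Gpx3 are higher under paraquat in both genotypes, Gpx1 is lowest in wt sham arrays (2042 to 2333), and Sod3 and Gpx2 lie between 20 and 46 in all arrays.

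Promoter windows are shown for the 4 genes that rose in wt and for Sod1 and Gpx4, which fell, so that the changed genes can be compared. Each window runs from 250 bases before to 50 bases after the start site in RefSeq (build GRCm38.p6), and 8 of the 9 genes matched a window by symbol. They lie at chr13:75839635-75839934, plus strand (Glrx, the first of its windows), chr11:54902604-54902903, plus strand (Gpx3), chr9:108338830-108339129, plus strand (Gpx1), chr2:103485104-103485403, minus strand (Cat), chr16:90220512-90220811, plus strand (Sod1), chr10:80046916-80047215, plus strand (Gpx4, the first of its 4 windows) and chr10:80053315-80053614, plus strand (Gpx4, the second). Capitals mark matches, on either strand, to an AP-1 element (TGANTCA), the core of the antioxidant response element (TGACNNNGC), a CCAAT box (CCAAT), a GC box (GGGCGG) or a TATA box (TATAAA).
Glrx: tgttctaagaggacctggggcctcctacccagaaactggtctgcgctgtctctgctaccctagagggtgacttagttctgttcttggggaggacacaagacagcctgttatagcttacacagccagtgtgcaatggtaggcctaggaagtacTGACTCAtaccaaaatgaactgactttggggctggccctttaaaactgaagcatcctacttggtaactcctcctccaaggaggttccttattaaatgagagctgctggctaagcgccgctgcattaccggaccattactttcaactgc
Gpx3: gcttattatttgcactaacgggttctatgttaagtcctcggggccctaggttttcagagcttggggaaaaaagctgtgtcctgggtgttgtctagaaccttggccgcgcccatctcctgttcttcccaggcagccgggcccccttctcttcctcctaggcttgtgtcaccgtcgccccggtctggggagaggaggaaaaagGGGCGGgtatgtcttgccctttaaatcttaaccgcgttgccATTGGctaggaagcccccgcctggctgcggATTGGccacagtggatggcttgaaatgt
Gpx1: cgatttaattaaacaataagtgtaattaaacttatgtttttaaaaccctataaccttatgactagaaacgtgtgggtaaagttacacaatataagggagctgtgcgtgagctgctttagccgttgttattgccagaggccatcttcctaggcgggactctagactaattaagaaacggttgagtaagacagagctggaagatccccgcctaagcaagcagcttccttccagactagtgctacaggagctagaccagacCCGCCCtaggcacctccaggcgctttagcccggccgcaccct
Cat: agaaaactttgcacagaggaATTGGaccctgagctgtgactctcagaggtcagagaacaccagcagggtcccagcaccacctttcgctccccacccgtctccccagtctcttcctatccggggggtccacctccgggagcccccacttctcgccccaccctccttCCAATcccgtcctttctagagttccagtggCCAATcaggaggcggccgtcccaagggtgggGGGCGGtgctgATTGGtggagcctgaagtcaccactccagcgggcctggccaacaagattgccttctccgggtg
Sod1: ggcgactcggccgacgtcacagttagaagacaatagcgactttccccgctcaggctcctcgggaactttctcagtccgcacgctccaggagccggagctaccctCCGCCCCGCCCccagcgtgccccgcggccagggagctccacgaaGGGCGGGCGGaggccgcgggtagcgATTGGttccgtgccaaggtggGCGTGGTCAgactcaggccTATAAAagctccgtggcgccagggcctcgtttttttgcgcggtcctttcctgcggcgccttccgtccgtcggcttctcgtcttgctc
Gpx4, first window: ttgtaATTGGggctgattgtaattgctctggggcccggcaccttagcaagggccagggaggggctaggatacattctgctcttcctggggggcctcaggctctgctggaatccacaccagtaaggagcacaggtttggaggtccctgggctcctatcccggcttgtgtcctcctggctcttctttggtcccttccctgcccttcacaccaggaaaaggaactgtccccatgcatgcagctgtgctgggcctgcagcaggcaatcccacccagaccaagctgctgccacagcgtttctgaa
Gpx4, second window: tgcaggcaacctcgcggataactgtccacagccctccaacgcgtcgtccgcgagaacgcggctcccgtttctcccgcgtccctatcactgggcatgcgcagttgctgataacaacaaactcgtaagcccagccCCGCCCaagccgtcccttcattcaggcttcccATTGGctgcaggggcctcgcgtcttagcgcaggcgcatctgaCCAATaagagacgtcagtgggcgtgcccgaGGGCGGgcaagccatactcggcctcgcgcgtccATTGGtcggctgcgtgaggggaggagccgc

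The windows differed in which of these letters they held. The Glrx window held an AP-1 element that begins at position -98 relative to the start site and none of the other 4 motifs. An AP-1 match was present in 7.81% of all 32851 windows of this length. The Cat window held 4 CCAAT boxes and 1 GC box, the Gpx3 window 2 CCAAT boxes and 1 GC box, and the Gpx1 window 1 GC box alone. The Sod1 window held 4 GC boxes, of which neighbouring ones share bases, 1 CCAAT box, 1 TATA box and 1 antioxidant response element core. The Gpx4 windows held no TATA box, antioxidant response element core or AP-1 element. The first held 1 CCAAT box, the second and the third, which overlap, 3 CCAAT boxes and 2 GC boxes each, and the fourth 1 GC box. Among all windows a CCAAT box was present in 37.4%, a GC box in 35.7%, a TATA box in 13.6% and an antioxidant response element core in 12.4%. These are matches of letters and not measured binding sites.

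In KO keratinocytes 2 of the 9 genes rose under paraquat, Glrx and Gpx3, and none fell. Among all genes, 27.1% were called in KO, and 14.5% rose. At an unadjusted p under 0.05 there were 3 genes, the third being Cat, and 36.3% of all genes. The median log2 difference was 0.11 over the 9 genes and 0.00789 over all genes.

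Glrx signals were 1863, 2159 and 1816 in KO paraquat arrays, against 1099, 858 and 623 in KO sham arrays. The groups did not overlap, and Glrx rose 2.32-fold (log2 1.21 ± 0.19, adjusted p = 3.29e-04). Gpx3 signals were 77, 82 and 110 in KO paraquat arrays, against 43, 29 and 33 in KO sham arrays, a 2.57-fold rise (log2 1.36 ± 0.16, adjusted p = 2.49e-05), or 1.05 with 16 added to every signal. These 2 genes were also the only members whose arrays did not overlap in KO, against 37.2% of all genes.

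Cat in KO stood close to the threshold. Its signals were 2842, 2724 and 2962 in KO paraquat arrays, against 2740, 2188 and 2302 in KO sham arrays, with KO sham 1 inside the paraquat range (log2 0.24 ± 0.09, adjusted p = 0.0701). Without KO sham 1 the difference was 0.34 and passed (adjusted p = 0.0121). It also passed after centring on the array median (adjusted p = 0.0328), with a filter on dim genes (0.0381), with 16 added (0.0381) and with a variance trend (0.028). These were 5 of 21 alternatives, and others moved it away from the threshold. Without KO sham 2 the log2 difference was 0.18 (adjusted p = 0.242). The adjusted p was 0.18 without KO sham 3 and 0.184 without KO paraquat 3. It was 0.188 without wt sham 2 and KO paraquat 3 together and 0.131 from the KO arrays alone.

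The other 6 genes did not pass in KO. Gpx1 signals were 3404, 3356 and 3530 in KO paraquat arrays, against 3367, 3068 and 3047 in KO sham arrays (log2 0.12, 95% interval -0.0511 to 0.289). Sod1 was at 399, 425 and 559 in KO paraquat arrays, against 569, 459 and 556 in KO sham arrays (log2 -0.21, interval -0.508 to 0.0977). The Sod1 value rested on single arrays, at -0.35 without KO paraquat 3 (adjusted p = 0.0786) and -0.11 without KO paraquat 1 (0.69). In both Gpx1 and Sod1 the groups overlapped. Gpx4 averaged 266.7 ± 12.7 in KO paraquat and 275.7 ± 12.1 in KO sham arrays (SD, n = 3 each), and Sod2 averaged 1148 ± 125 and 1064 ± 110 in the same order. The intervals of their log2 differences were -0.227 to 0.131 for Gpx4 and -0.103 to 0.321 for Sod2. Sod3 averaged 37.7 in KO paraquat and 38 in KO sham arrays, and Gpx2 averaged 24 and 22.7.

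**Figure D2:**
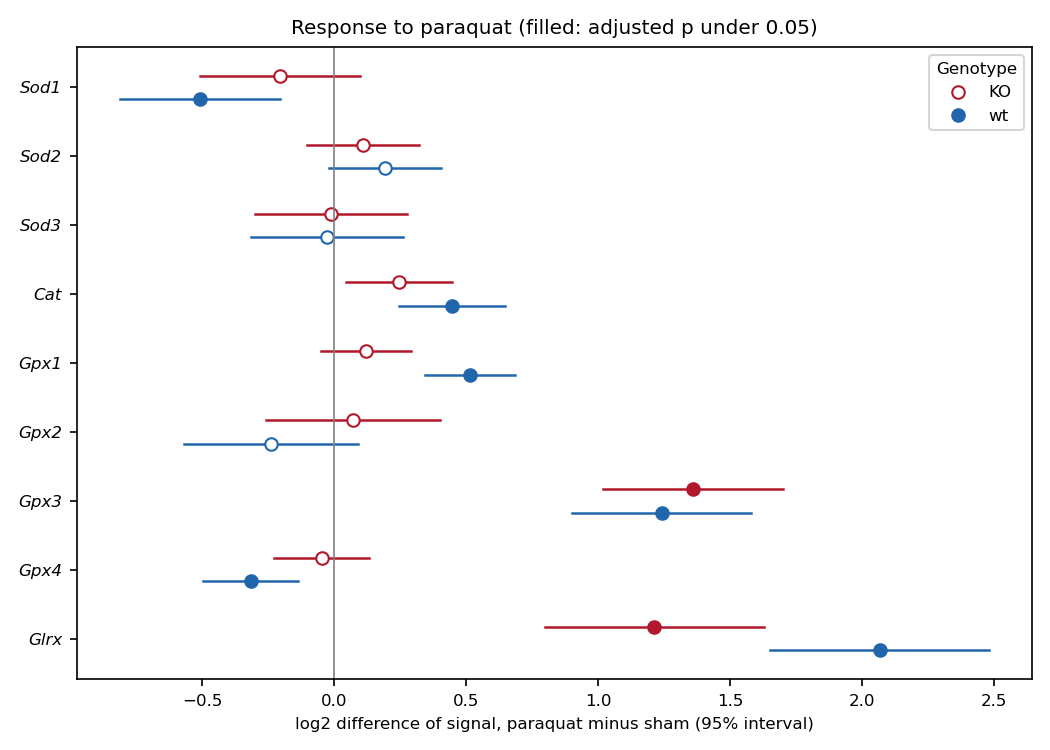
Log2 difference of signal, paraquat minus sham, with its 95% interval, for each gene in KO (red) and wt (blue) cultures. Filled points passed an adjusted p of 0.05: 2 genes in KO and 6 in wt, with Sod1 and Gpx4 to the left of 0.

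Markers of other cell types also moved with paraquat, as 27.1% of all genes did in KO and 29.2% in wt. Of 8 melanocyte markers 4 rose in KO and 4 in wt, and their summed signal was 921 to 966 in KO paraquat against 481 to 532 in KO sham arrays, and 930 to 1013 in wt paraquat against 427 to 505 in wt sham arrays. Of 8 leukocyte markers 2 rose in KO and 3 in wt, with sums of 1459 to 1721 against 817 to 908 in KO and 2048 to 2137 against 800 to 851 in wt. Of these sums the macrophage-lineage marker Cd68, picked here after its values were seen, made up a mean of 1346 in KO paraquat and 1825 in wt paraquat arrays, while the pan-leukocyte marker Ptprc averaged 17 and 18. Of 6 endothelial markers 2 rose in KO and 3 in wt, with sums of 338 to 384 against 230 to 247 in KO and 412 to 490 against 206 to 235 in wt. Of 9 fibroblast markers 2 rose in KO and 1 in wt, with sums of 385 to 402 against 355 to 365 in KO and 436 to 497 against 370 to 426 in wt. Single genes, also picked after their values were seen, weighed on these sums. Mean Mlana signals were 69.7 in KO sham and 357.7 in KO paraquat, and 64.3 and 379 in wt. In the same order those of Kdr were 58, 148.7, 53.3 and 248.3, and of Pdgfra 31.3, 58, 35 and 98.7. Sox10 stood at 37.7, 39.3, 37.3 and 42.7, Cdh5 at 30.3, 30.7, 33 and 32, and Col3a1 at 39.7, 40.7, 44.3 and 40.3. The sums alone thus do not show that whole lists moved. Counted by estimate, with or without a call, 7 of 8 melanocyte markers were higher under paraquat in KO and 8 of 8 in wt. In the same order, 5 and 8 of 8 leukocyte, 6 and 5 of 6 endothelial, and 7 and 6 of 9 fibroblast markers were higher. Between KO and wt under paraquat, 5 of 8 melanocyte, 8 of 8 leukocyte, 4 of 6 endothelial and 6 of 9 fibroblast estimates were lower in KO. The sums of leukocyte, endothelial and fibroblast markers did not overlap between KO paraquat and wt paraquat arrays, and the KO response of Cd68 minus its wt response was log2 -0.59 (adjusted p = 0.0363). No signal in the table was under 3, so a listed value shows neither presence nor absence of a cell type. In KO and wt paraquat arrays alike, 3 melanocyte, 5 leukocyte, 3 endothelial and 4 fibroblast markers had a mean under the highest array median. The part of these markers in the responses was not tested.

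The genotypes were compared next in sham cultures. Gpx1 and Sod2 were higher in KO, and the other 7 genes did not pass. Among all genes, 10.2% were called, and 4.58% were higher in KO. Gpx1 signals were 3367, 3068 and 3047 in KO sham arrays, against 2333, 2136 and 2042 in wt sham arrays. The groups did not overlap, and Gpx1 was 1.46-fold higher in KO (log2 0.54 ± 0.08, adjusted p = 9.16e-04). The mean level in KO sham cultures (3161 ± 179, SD) thus lay beside that of wt paraquat cultures (3095 ± 91.5), and the arrays of these groups overlapped.

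Sod2 signals were 1175, 1063 and 955 in KO sham arrays, against 879, 803 and 825 in wt sham arrays, 1.27-fold higher in KO (log2 0.34 ± 0.1, adjusted p = 0.0414). The call did not hold without wt sham 2 (adjusted p = 0.127), wt sham 3 (0.109), KO sham 1 (0.141) or KO sham 2 (0.103). It was also lost without wt paraquat 1 (0.0552), wt paraquat 2 (0.0566), wt paraquat 3 (0.0575) or KO paraquat 1 (0.0551), which enter only through the shared spread. Without wt sham 2 and KO paraquat 3 together the adjusted p was 0.0916. It was 0.0684 after centring on the array median and 0.106 from the 6 sham arrays alone.

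Gpx4 was the third gene whose sham arrays did not overlap between genotypes, which was so for 22.7% of all genes. Its signals were 287, 263 and 277 in KO sham arrays, against 303, 359 and 324 in wt sham arrays (log2 -0.25 ± 0.08, adjusted p = 0.0776). It passed without wt sham 1 (adjusted p = 0.0442), with a filter on dim genes (0.0384) and with 16 added (0.032). These were 3 of 21 alternatives, and others moved it away from the threshold. Without wt sham 2 the log2 difference was -0.19 (adjusted p = 0.239). The adjusted p was 0.212 without KO sham 2 and 0.19 from the sham arrays alone. It was 0.239 without wt sham 2 and KO paraquat 3 together. Sod1, Cat and Glrx differed by log2 0.16, 0.22 and 0.31 between KO and wt sham cultures, with adjusted p-values of 0.578, 0.172 and 0.389 and overlapping arrays. Single arrays moved these values: with 1 array left out Sod1 ran from 0.0351 (without wt sham 3) to 0.25 (without KO sham 2). Cat ran from 0.13 (without KO sham 1) to 0.29 (without KO sham 2), and Glrx from 0.11 (without KO sham 1) to 0.52 (without KO sham 3), and none passed. Sod3, Gpx2 and Gpx3 had means of 38, 22.7 and 35 in KO sham arrays, against 39.7, 26.7 and 40 in wt sham arrays. Among markers of other cell types, the leukocyte markers Adgre1 and Itgam differed by log2 0.34 and -0.33 between KO and wt sham cultures, and the endothelial marker Tek by 0.61 (adjusted p = 0.0314, 0.0229 and 0.015). Their mean signals in KO and wt sham arrays were 19 and 15, 25.3 and 31.7, and 46.3 and 30. These lay near or under the array medians, so they were not shown to be above background. The other 6 leukocyte and 5 endothelial markers did not pass. Fibroblast marker sums were 355 to 365 in KO sham and 370 to 426 in wt sham arrays, with 8 of 9 estimates lower in KO, 0 past the threshold and 4 at an unadjusted p under 0.05. Their part in the genotype differences was not tested.

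Under paraquat none of the 9 genes differed between KO and wt at the threshold, where 0.55% of all genes did. At an unadjusted p under 0.05 limma gave 3 of the 9, which were Sod1, Sod2 and Glrx, and 11% of all genes. Glrx signals were 1863, 2159 and 1816 in KO paraquat arrays, against 2725, 3100 and 2695 in wt paraquat arrays (log2 -0.55, 95% interval -0.962 to -0.131, adjusted p = 0.291). Sod1 signals were 399, 425 and 559 in KO paraquat arrays, against 357, 324 and 314 in wt paraquat arrays (log2 0.46, interval 0.159 to 0.764, adjusted p = 0.2). Sod2 signals were 1106, 1049 and 1289 in KO paraquat arrays, against 984, 926 and 956 in wt paraquat arrays (log2 0.26, interval 0.0478 to 0.472, adjusted p = 0.337). Without wt sham 2 and KO paraquat 3 together the log2 differences were -0.50 for Glrx, 0.31 for Sod1 and 0.17 for Sod2 (adjusted p = 0.484, 0.518 and 0.665). In these 3 genes and in Gpx1 the arrays of the genotypes did not overlap, as in 17% of all genes. Cat averaged 2843 ± 119 in KO paraquat and 2805 ± 9.29 in wt paraquat arrays, with an interval of -0.182 to 0.219 for the log2 difference. For Gpx4 that interval was -0.162 to 0.196, and for Gpx3 it was -0.426 to 0.254.

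The responses of the genotypes were then set against each other in an interaction test, since passing in wt and missing in KO does not show a difference. The responses of the 9 genes did not differ between the genotypes at the threshold (0 of 9 passed), and 2.29% of all genes did. At an unadjusted p under 0.05 limma gave 3 genes, Gpx1, Glrx and Gpx4, and 15.2% of all genes. For Gpx1 the KO response was 0.12 and the wt response 0.51 on the log2 scale, a difference of -0.39 ± 0.11 (SE, adjusted p = 0.0905). The Gpx1 difference passed with a filter on dim genes (adjusted p = 0.0429), with 16 added (0.0298) and with a variance trend (0.0226). These were 3 of 20 alternatives, and others moved it away from the threshold. The adjusted p was 0.157 after centring on the array median and 0.179 without wt sham 2 and KO paraquat 3 together. Over all alternatives it reached 0.188. For Glrx the KO response was 1.21 and the wt response 2.07, a difference of -0.86 ± 0.27 (95% interval -1.44 to -0.268, adjusted p = 0.135). For Gpx4 the KO response was -0.05 and the wt response -0.32, a difference of 0.27 ± 0.12 (adjusted p = 0.293). Gpx3 responded by 1.36 in KO and 1.24 in wt, and the 95% interval of the difference was -0.363 to 0.598. Because its sham signals were not shown to be above background, these responses are uncertain, and with 16 added the difference was 0.069 (adjusted p = 0.906). Without wt sham 2 and KO paraquat 3 together it was -0.11.

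**Figure D3:**
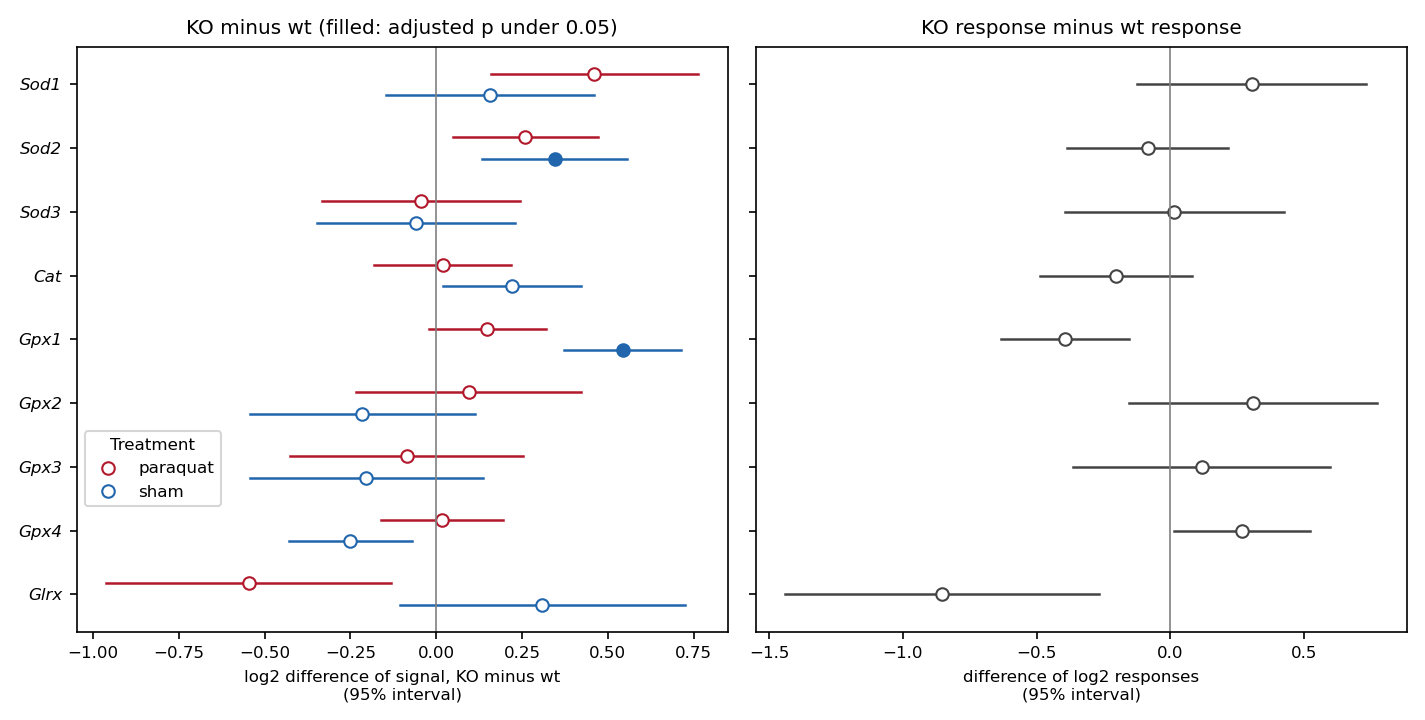
Left, log2 difference of signal, KO minus wt, under paraquat (red) and in sham cultures (blue). Right, KO response minus wt response, where no gene passed. Lines are 95% intervals and filled points passed an adjusted p of 0.05, which only Gpx1 and Sod2 did, in sham cultures.

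Across the 4 groups the genes fell into different orders of level. Gpx1 averaged 3430 ± 89.9 in KO paraquat, 3161 ± 179 in KO sham, 3095 ± 91.5 in wt paraquat and 2170 ± 149 in wt sham arrays (SD, n = 3 each), and neighbours in this order overlapped except for wt paraquat and wt sham. Cat was highest in KO paraquat and wt paraquat arrays, which overlapped, then in KO sham (2410 ± 291) and wt sham (2061 ± 147), which also overlapped. Glrx was highest in wt paraquat (2840 ± 226), then KO paraquat (1946 ± 186), KO sham (860 ± 238) and wt sham (689.7 ± 172), and only the 2 sham groups overlapped. Gpx4 was highest in wt sham (328.7 ± 28.3), apart from the other 3 groups, which overlapped each other between 253 and 287. Sod1 was lowest in wt paraquat (331.7 ± 22.5), apart from KO paraquat (461 ± 85.9), wt sham (474.7 ± 66.6) and KO sham (528 ± 60.1), whose neighbours overlapped. Sod2 ran from KO paraquat (1148 ± 125) through KO sham (1064 ± 110) and wt paraquat (955.3 ± 29.0) to wt sham (835.7 ± 39.1). Among neighbours in this order only the last 2 groups did not overlap.

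Genes that work with these enzymes were read in the same fit. Under paraquat that fit called 27.1% of all genes in KO and 29.2% in wt. Between the genotypes in sham cultures it called 10.2%. Of 9 measured genes of glutathione synthesis, breakdown and reduction, 6 rose and 0 fell in KO under paraquat, and 5 rose and 3 fell in wt. Gss, glutathione synthetase, rose by log2 0.79 in KO and 0.88 in wt (adjusted p = 3.36e-05 and 9.8e-06). Ggct, which acts on gamma-glutamyl peptides, rose by 0.81 in KO and 1.26 in wt (1.72e-04 and 2.96e-06). Slc7a11, the cystine carrier that feeds glutathione synthesis, rose by 1.05 in KO and changed by -0.67 in wt (8.44e-06 and 2.6e-04), and its partner Slc3a2 fell in wt by 0.79 on the log2 scale (7.49e-06). In sham cultures Slc7a11 averaged 222 in KO against 570 in wt, Chac1, which degrades glutathione, 121 against 319.7, and Slc3a2 1615 against 2716. These 3 genes were lower in KO sham cultures (adjusted p = 1.2e-05, 2.9e-05 and 1.64e-04), and Ggct was higher (log2 0.63, adjusted p = 0.00434). None of the 9 differed between KO and wt under paraquat, and 3 passed the interaction test, which 2.29% of all genes passed.

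The 3 other glutaredoxins rose with Glrx in both genotypes, where 14.5% of all genes rose in KO and 14.9% in wt. Glrx5, a mitochondrial iron-sulfur cluster protein, rose by log2 0.62 in KO and 0.51 in wt (adjusted p = 7.87e-04 and 0.00262). Glrx3 rose by 0.28 and 0.37, and Glrx2 by 0.23 and 0.26, in the same order (adjusted p of 0.0406 and 0.00726, then 0.0474 and 0.0228). None of the 4 further glutathione peroxidases (Gpx5 to Gpx8) and none of the 7 genes for making selenoproteins passed in any of the 5 comparisons. Of 4 genes of copper delivery, Atp7a, a copper pump that also loads secreted enzymes, rose by 0.55 in KO and 0.56 in wt (8.99e-04 and 6.66e-04). Ccs, which hands copper to SOD1, rose by 0.35 in KO (adjusted p = 0.00587) and had a log2 difference of 0.19 in wt (0.114). Slc31a1, the copper uptake carrier, fell in KO under paraquat by 0.34 on the log2 scale (0.0164) and was higher by 0.33 in KO than in wt sham cultures (0.0469).

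Catalase reaches peroxisomes through an import machinery, and 10 genes of this machinery or of building the peroxisomal membrane were measured. Under paraquat 3 rose and 1 fell in KO, and 3 rose and 1 fell in wt. Of all genes, 27.1% were called in KO and 29.2% in wt under paraquat. Pex13, part of the docking complex, rose by log2 0.54 in KO and 0.99 in wt (adjusted p = 1.32e-04 and 4.75e-07), and was lower in KO than in wt under paraquat (log2 -0.44, adjusted p = 0.0256). Pex3, needed to build the membrane, rose by 0.95 in KO and 0.98 in wt (2.46e-06 and 1.03e-06). Pex19, which brings proteins to that membrane, rose by 0.25 in KO and 0.42 in wt (0.0466 and 0.0018), and Pex2 fell in KO by 0.51 on the log2 scale (0.00166). Pex14 was lower in KO than in wt sham cultures (log2 -0.48, adjusted p = 0.031). Of 8 measured peroxiredoxins, thioredoxins and their reductases, 5 rose and 1 fell in KO and 5 rose and 1 fell in wt. Txnrd1, the cytosolic thioredoxin reductase, rose by 1.63 in KO and 1.75 in wt (1.68e-07 and 3.48e-08). Srxn1, which restores oxidised peroxiredoxins, rose by 0.31 in KO and 0.65 in wt (0.0447 and 3.24e-04), and the mitochondrial Prdx3 by 0.43 and 0.52 in the same order (0.0149 and 0.0042). Txn2, the mitochondrial thioredoxin, rose by 0.40 in KO (0.00756). Prdx4, of the endoplasmic reticulum, changed by -0.79 in KO and -0.60 in wt (0.00622 and 0.0269). Txn1 was higher in KO than in wt sham cultures (log2 0.32, adjusted p = 0.0313).

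**Figure D4:**
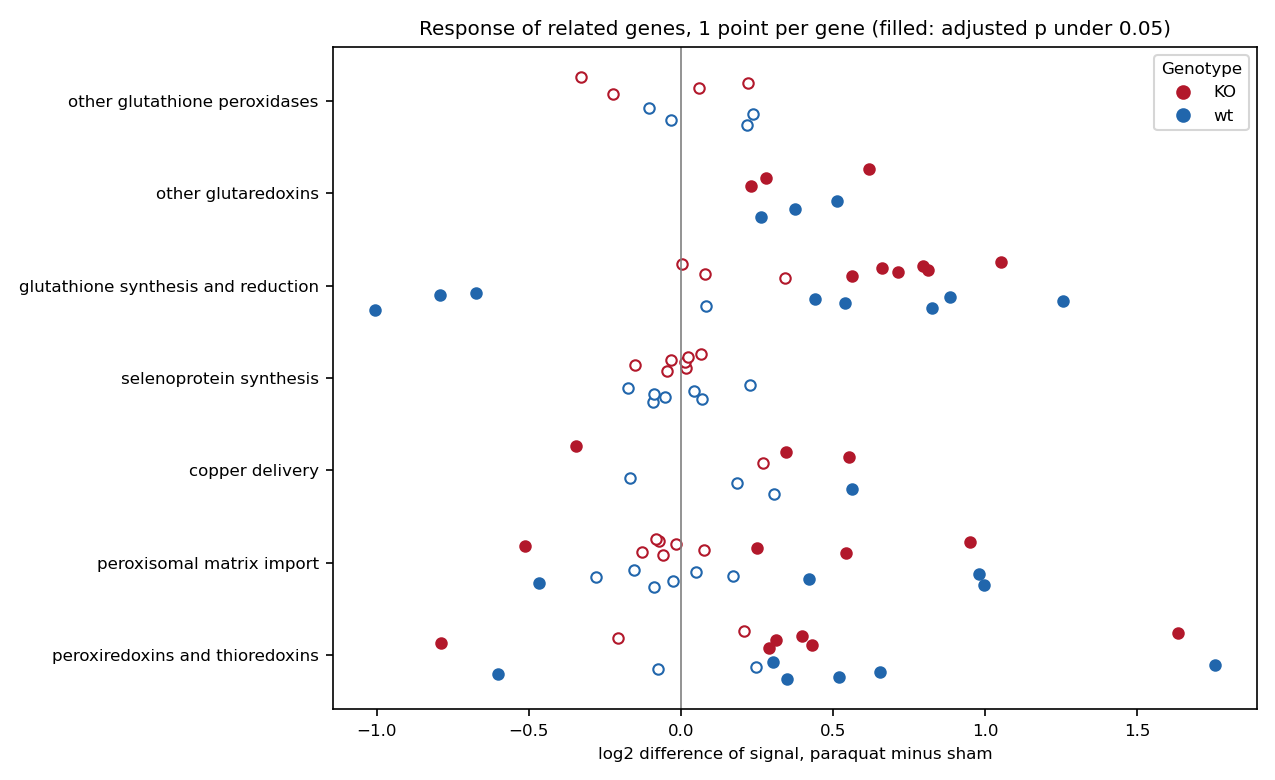
Log2 difference of signal, paraquat minus sham, for genes of 7 related lists, with 1 point per gene in KO (red) and wt (blue). Filled points passed an adjusted p of 0.05, and all 3 other glutaredoxins lie right of 0 in both genotypes.

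The genes most like each member over the 12 arrays were found by Pearson correlation of log2 signal among 17420 named genes. The 12 arrays fall into 4 groups, so these values can follow group means. The correlation of deviations from the group means is given beside them as a description. Gde1, Casp14 and Commd6 were most like Glrx (r = 0.991, 0.987 and 0.984; within groups 0.885, 0.831 and 0.777), Casp14 being a caspase of the outer epidermis. Cox17, Srr and Tmem141 were most like Gpx3 (0.988, 0.982 and 0.982; within groups 0.912, 0.736 and 0.839). Mab21l3, Stfa3 and Pqlc3 were most like Gpx1 (0.977, 0.968 and 0.966; within groups 0.573, 0.504 and 0.727). Mrpl49, Pmpcb and Cops9 were most like Cat (0.978, 0.973 and 0.967, and within groups 0.89, 0.848 and 0.791). Prmt7, Steap1 and Klf15 were most like Gpx4 (0.974, 0.967 and 0.964, and within groups 0.894, 0.851 and 0.876). Vdac2, Mtx2 and Cdc5l were most like Sod2 (0.969, 0.942 and 0.936, and within groups 0.922, 0.897 and 0.796). Sdhaf3, Fhod3 and Ywhaq were most like Sod1 (0.956, 0.949 and 0.943, and within groups 0.9, 0.861 and 0.839). For the dim Sod3 and Gpx2 the highest values were 0.894 (Cyp3a57, within groups 0.952) and 0.922 (Zfp36l3, within groups 0.953). Both were higher within groups, so they follow the scatter of low signals within groups more than group means.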

How the data were processed

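RNA of 12 keratinocyte cultures was labelled with biotin and hybridised to 1 array each. The deposited table holds intensities. Per the submitters' processing notes, the authors used RMA and Expression Console 1.3.1.187. The values are whole numbers from 3 to 17695 with nearly equal array medians, so they were read as linear and rounded, and their log2 was taken. The genome build is not given in the sources used here. Of 41345 probe sets 23521 carried 1 gene symbol, and the highest-mean probe set stood for each of 22180 genes, with no filter. limma 3.58.1 in R 4.3.3 (lmFit, eBayes) fitted 1 mean per group to all 12 arrays, without a block. Each of the 5 comparisons used the 2-sided moderated test with Benjamini-Hochberg adjustment over all genes and a threshold of 0.05. The method was also run on simulated arrays, whose outcome is not given here and lends no support to the calls. The members, lists and alternatives were chosen with earlier results of these data known. Named beside the members were, from each list, up to 3 genes per comparison with the smallest p past the threshold, and for each member its 3 most correlated genes, predicted and small-RNA genes left out. Of the lists, G6pdx, Prdx1, Prdx5, Prdx6 and Krt5 were among the genes not analysed here. Arrays with the same replicate number did not deviate together (correlations of deviations from -0.0719 to 0.0902), so the number was not taken to pair them.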

Additional observations from a re-analysis of the deposited data

Results flagged for a closer look

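Among the related genes named above, 4 had responses to paraquat that differed between KO and wt by the interaction test itself. These were 3 of 9 measured glutathione genes and 1 of 10 measured peroxisomal genes, where 2.29% of all genes passed. The KO response minus the wt response was 1.73 on the log2 scale for Slc7a11 (adjusted p = 6.96e-05), 1.34 for Chac1 (0.00148) and 0.80 for Slc3a2 (0.00375). It was -0.45 for Pex13 (adjusted p = 0.0498), which lay close to the threshold. How these 4 calls depend on the processing or on single arrays is not given here. None of the 9 members met this test.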

How the results depend on the processing

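The counts of called members were 6 in wt and 2 in KO under paraquat in the main analysis, and 5 to 6 and 2 to 3 over all alternatives. In sham cultures, KO against wt, the count of 2 became 1 after centring on the array median, from the sham arrays alone, with the replicate number as a block, and without wt sham 2 and KO paraquat 3 together, each time through the loss of Sod2 (adjusted p = 0.0562 with the replicate block). It became 3 with the dim-gene filter and with 16 added, through Gpx4, and it was 1 to 3 when single arrays were left out. With the replicate block it was otherwise 6, 2, 0 and 0, as without it. For KO response minus wt response, 1 member (Gpx1) passed with the dim-gene filter, with 16 added and with the variance trend, and 0 passed when any single array was left out. All values that turned sign stayed short of the threshold. Without wt sham 2 and KO paraquat 3 together the log2 differences of Sod3 were 0.0845 (paraquat in wt), 0.101 (paraquat in KO), 0.0525 (KO against wt, sham) and 0.0688 (KO against wt, paraquat), those of Cat and Gpx4 (KO against wt, paraquat) were -0.0115 and -0.0131, and the Gpx3 difference of responses was -0.11. After centring, the KO responses of Sod3 and Gpx4 were 0.0428 and 0.00723. With single arrays left out, Sod3 ran from -0.13 to 0.0845 (wt response), -0.0882 to 0.101 (KO response), -0.17 to 0.0525 (KO against wt, sham), -0.11 to 0.0688 (KO against wt, paraquat) and -0.097 to 0.13 (difference of responses). Gpx2 ran from -0.0468 to 0.20 in the KO response. In KO against wt under paraquat, Gpx2 ran from -0.0227 to 0.22, Cat from -0.0115 to 0.0489, Gpx3 from -0.24 to 0.0151 and Gpx4 from -0.0131 to 0.0548. The Gpx3 difference of responses ran from -0.0387 to 0.28. Over all genes, calls in KO against wt in sham (2273) were 976 from the sham arrays alone, 1360 without both arrays, and 1418 to 2363 without single arrays. In KO against wt under paraquat (122) they were 222 with the filter, 231 with 16 added, 223 with the trend, 3 from the paraquat arrays alone, 44 without both arrays and 30 to 171 without single arrays. For the difference of responses (508) they were 894, 882 and 783 with the filter, 16 added and the trend, 268 without both arrays and 250 to 700 without single arrays. Why these counts moved was not tested. The dim-gene filter kept 7 of the 9 members and dropped Sod3 and Gpx2.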
